A study of Mus musculus with 8 samples.

Results

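The kappa V genes are the gene segments that encode most of the variable part of the kappa light chain, the light chain of nearly all mouse antibodies. Their members were taken as every V gene whose name begins IGKV among the productive kappa contigs, keeping for each cell barcode the contig with most UMIs (unique molecular identifiers, which count captured RNA molecules). That gave 95 kappa V genes of 198 V genes in the receptor libraries, the others being 97 heavy V genes, 3 lambda V genes and 3 kappa V genes that occurred only as a second contig. They were carried by 14744 kappa cells of 15592 barcodes with a receptor contig. Deep cervical lymph nodes of mice were collected on day 20, and their live immune cells were isolated by FACS. The anti-CTLA-4 library came from mice with GL261 cells, a mouse glioma line, in the brain that were given anti-CTLA-4, an antibody that blocks a checkpoint receptor of T cells. The isotype library came from GL261-bearing mice given isotype control IgG, and the saline control library from mice labelled DPBS, a buffered saline, both in place of glioma cells and as treatment. None of these groups was given anti-CD20. The titles of the anti-CTLA-4 and isotype libraries label them WT, and that of the saline control library does not. A further pair of expression libraries, anti-CTLA-4 and isotype, came from glioma-bearing mice whose B cells had been depleted with anti-CD20, and has no receptor library here. How many mice made up a library, and their strain, age and sex, are not stated in the labels.

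With 1 receptor library per group there is no replicate check and no difference was tested; every interval given is a 95% interval and covers counting error only. Cells of a clone share their receptor and are not independent, which makes intervals too narrow where clones are large. There were 5485 kappa cells in the anti-CTLA-4, 4670 in the isotype and 4589 in the saline control library, with medians of 25, 24 and 26 kappa UMIs per cell. Every kappa barcode was in the expression table of its group, and 99.6% in each library had a UMI of Cd79a, the B cell receptor's signalling chain. A UMI of Cd3e, a signalling chain of the T cell receptor complex, occurred in 10.4%, 7.73% and 7.17% of them, against 82.8%, 81.0% and 84.5% of the other barcodes. Libraries shared 42 (anti-CTLA-4 and isotype), 35 (anti-CTLA-4 and saline control) and 43 (isotype and saline control) kappa barcodes. Of these, 2 barcodes of the last pair carried the same kappa and heavy rearrangements in both libraries. A cell with IGKV12-44 and IGHV1-19 had 17 kappa UMIs in the isotype and 11 in the saline control library. An IGHG1 cell with IGKV10-94 and IGHV9-3 had 4577 UMIs in the isotype and 3 in the saline control library, where it is 1 of 5 IGHG1 kappa cells.

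A kappa chain is assembled in the bone marrow by joining a V gene to a J gene (IGKJ), with no D segment between them, and the join forms CDR3, the third antigen-contacting loop. The J genes stand in a row before the constant gene, and V genes lie in both orientations along the locus, so that a join can delete or invert the DNA between. A cell whose first kappa chain is unusable or binds self can join a V gene farther out to a J gene farther down, and cells that fail at kappa turn to lambda. In germinal centres the V segments of both chains are later mutated, and the heavy constant gene can be switched to IgG or IgA.

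The sequences that carry the main results are given first. The V segment of IGKV10-96, the most used gene (chr6:68631965-68632430, mm10), is shown as the sequence most frequent among its cells, from framework 1 to framework 3, with the first and second antigen-contacting loops in capitals; it was carried unaltered by 887 cells.
IGKV10-96: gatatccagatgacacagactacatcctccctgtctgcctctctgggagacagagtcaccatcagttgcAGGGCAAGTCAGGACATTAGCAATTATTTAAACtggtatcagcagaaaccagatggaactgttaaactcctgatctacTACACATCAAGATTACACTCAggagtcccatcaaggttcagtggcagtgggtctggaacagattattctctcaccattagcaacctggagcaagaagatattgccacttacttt
The common V segments of IGKV17-121 and IGKV17-127, which hardly ever joined IGKJ1, differ at 5 of 261 bases, which are in capitals.
IGKV17-121: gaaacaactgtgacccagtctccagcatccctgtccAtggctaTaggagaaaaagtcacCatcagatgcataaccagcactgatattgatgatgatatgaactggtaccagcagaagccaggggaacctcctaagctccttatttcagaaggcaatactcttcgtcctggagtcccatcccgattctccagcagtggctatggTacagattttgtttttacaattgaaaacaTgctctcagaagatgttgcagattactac
IGKV17-127: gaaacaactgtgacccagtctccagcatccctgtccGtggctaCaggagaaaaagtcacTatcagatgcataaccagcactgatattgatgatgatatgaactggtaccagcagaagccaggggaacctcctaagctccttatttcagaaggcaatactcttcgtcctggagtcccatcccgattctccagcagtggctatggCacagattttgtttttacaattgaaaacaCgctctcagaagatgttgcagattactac
The most frequent CDR3 of IGKV10-96 with each J gene is given, with the last 10 bases, which hold all of their differences, in capitals. In the order printed they were carried by 337, 205, 41 and 31 of the 920 IGKV10-96 cells. Other joins of the gene are not printed.
IGKV10-96 with IGKJ1: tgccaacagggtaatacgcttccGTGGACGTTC
IGKV10-96 with IGKJ2: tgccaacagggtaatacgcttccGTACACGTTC
IGKV10-96 with IGKJ4: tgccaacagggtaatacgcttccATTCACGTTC
IGKV10-96 with IGKJ5: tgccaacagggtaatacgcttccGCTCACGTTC

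Usage of the kappa V genes was uneven within a library and close to the same between libraries. IGKV10-96 was used by 354 cells or 6.45% (5.82 to 7.14) in the anti-CTLA-4, 297 cells or 6.36% (5.68 to 7.10) in the isotype and 269 cells or 5.86% (5.20 to 6.58) in the saline control library. The next genes by mean share were IGKV1-117, IGKV1-135, IGKV6-15, IGKV6-17, IGKV1-110, IGKV6-23, IGKV17-127, IGKV12-46, IGKV14-111, IGKV19-93 and IGKV12-44. IGKV1-117 stood at 4.10%, 3.83% and 3.68%, and IGKV12-44 at 2.52%, 2.29% and 2.51%, in the same order of libraries. Among these 12 genes the intervals of the 3 libraries overlapped for every gene, and those of neighbours in the order overlapped apart from IGKV10-96, whose lowest bound, 5.20%, lies above the highest bound of the second gene, 4.66%. The 12 genes together held 38.7% of the anti-CTLA-4, 40.8% of the isotype and 39.3% of the saline control cells. At least 50% of cells were reached with 18, 17 and 17 genes, and 90% with 51, 50 and 50 genes. At the other end 17, 18 and 20 of the 95 genes were under 0.1% of a library. Of the 95, 87 occurred in every library.

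**Figure D1:**
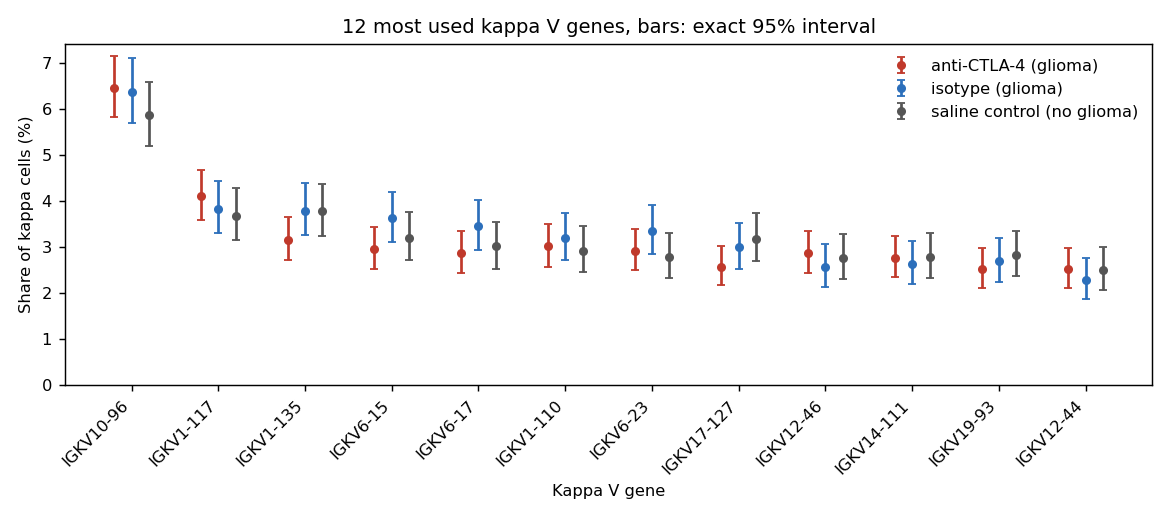
Share of kappa cells in percent (vertical axis) for the 12 kappa V genes with the highest mean share, in the anti-CTLA-4, isotype and saline control libraries; bars are exact 95% intervals. IGKV10-96 stands between 5.86% and 6.45%, and the intervals of the 3 libraries overlap for each gene.

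By family, the genes named after the number that follows IGKV, IGKV6 led with 14.2% of anti-CTLA-4, 15.8% of isotype and 14.2% of saline control cells from 9 genes. IGKV4, with 23 genes, held 14.0%, 12.8% and 13.4%, and IGKV1, with 8 genes, 11.5%, 11.9% and 11.6%. IGKV10 held 7.82%, 7.97% and 7.76% from 3 genes, most of it from IGKV10-96. IGKV11, IGKV7, IGKV18 and IGKV20 were each a single gene with 17 or fewer cells over the 3 libraries. Kappa V genes of this locus differ in sequence by as little as 3 bases in IGKV4-59 and IGKV4-70. In 9 pairs the common segments differ at 8 bases or fewer, among them IGKV1-110 and IGKV1-117 (7 bases), IGKV12-41 and IGKV12-44 (8), IGKV13-84 and IGKV13-85 (8), and IGKV3-12 and IGKV3-7 (8). How contigs of such near copies were assigned is uncertain.

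RefSeq lists 102 kappa V segments and 60 kappa V pseudogenes in mm10. Contigs covered 94 of the V segments and 1 gene listed as a pseudogene, IGKV14-126 (chr6:67896177-67896642). IGKV14-126 had productive contigs in 35 anti-CTLA-4, 22 isotype and 22 saline control cells. No leading contig used the other 8 V segments. Of these IGKV4-73 and IGKV4-60 had most UMIs in the expression tables of the 3 libraries. IGKV4-60 had 126 UMIs in the anti-CTLA-4, 314 in the isotype and 65 in the saline control library. For IGKV4-73 the tables held 793 UMIs in the anti-CTLA-4, 95 in the isotype and 109 in the saline control library.

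How usage under anti-CTLA-4 differed from isotype was the first comparison of treated and control glioma-bearing mice. Of 59 kappa V genes with at least 40 cells over both libraries, 4 or 6.78% stood at least 1.5-fold higher or lower, 2 (3.39%) higher and 2 (3.39%) lower. Of 60 heavy V genes 4 or 6.67% did, 3 (5.00%) higher and 1 (1.67%) lower. The median ratio of the kappa V genes was 1.01. IGKV5-43 had 98 anti-CTLA-4 and 51 isotype cells, 1.79% and 1.09%, a ratio of 1.64 (1.17 to 2.29). IGKV4-68 had 69 and 38 cells, a ratio of 1.55 (1.04 to 2.29). On the lower side IGKV3-1 had 19 anti-CTLA-4 and 27 isotype cells, 0.599 (0.334 to 1.08), and IGKV12-98 had 31 and 40 cells, 0.660 (0.413 to 1.05), so that neither interval excludes 1. The IGKV3-1 ratio was 0.889 (0.467 to 1.69) with each pair of rearrangements counted once per library, 0.671 in barcodes with 1 productive kappa contig and 0.683 in cells with IGHM or IGHD, each short of 1.5-fold. IGKV12-98 did not pass 1.5-fold with contigs of at least 5 UMIs, at 0.679, or in B cell barcodes without Cd3, at 0.674. With 1 productive kappa contig its ratio was 0.594 (0.364 to 0.968), and with 1 heavy and 1 kappa contig 0.521 (0.310 to 0.876). It was 0.652 (0.409 to 1.04) with each rearrangement pair counted once and 0.622 (0.382 to 1.01) in cells with IGHM or IGHD. Others ranked next by their intervals were IGKV2-109 at 1.43 (0.991 to 2.05), IGKV3-2 at 1.27 (0.948 to 1.71) and IGKV8-21 at 1.40 (0.940 to 2.08). The genes that ranked lowest by their intervals were IGKV5-39 at 0.715 (0.513 to 0.997), IGKV6-15 at 0.816 (0.660 to 1.01), IGKV15-103 at 0.714 (0.503 to 1.01), IGKV1-135 at 0.832 (0.677 to 1.02) and IGKV6-17 at 0.830 (0.669 to 1.03).

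The second comparison set isotype glioma against saline control. Of 59 kappa V genes 1 or 1.69% passed 1.5-fold, on the lower side. Of 59 heavy V genes 3 or 5.08% did, 1 (1.69%) higher and 2 (3.39%) lower. The gene was IGKV3-7, with 32 isotype and 51 saline control cells, a ratio of 0.617 (0.397 to 0.957). It did not pass 1.5-fold with 1 heavy and 1 kappa contig, at 0.707 (0.425 to 1.18), in B cell barcodes without Cd3, at 0.713 (0.453 to 1.12), or in IGHM or IGHD cells, at 0.676 (0.427 to 1.07). IGKV3-2 stood at 0.710 (0.527 to 0.957), IGKV5-43 at 0.696 (0.487 to 0.994), IGKV6-20 at 0.671 (0.416 to 1.08) and IGKV17-121 at 0.880 (0.677 to 1.14). The highest by their intervals were IGKV6-23 at 1.20 (0.951 to 1.51), IGKV10-96 at 1.08 (0.925 to 1.27), IGKV5-48 at 1.27 (0.922 to 1.76), IGKV6-17 at 1.15 (0.917 to 1.43) and IGKV6-15 at 1.13 (0.909 to 1.40). IGKV5-43 and IGKV3-2 were lowest in the isotype library, which both comparisons share. IGKV5-43 stood at 1.79% in the anti-CTLA-4, 1.09% in the isotype and 1.57% in the saline control library.

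**Figure D2:**
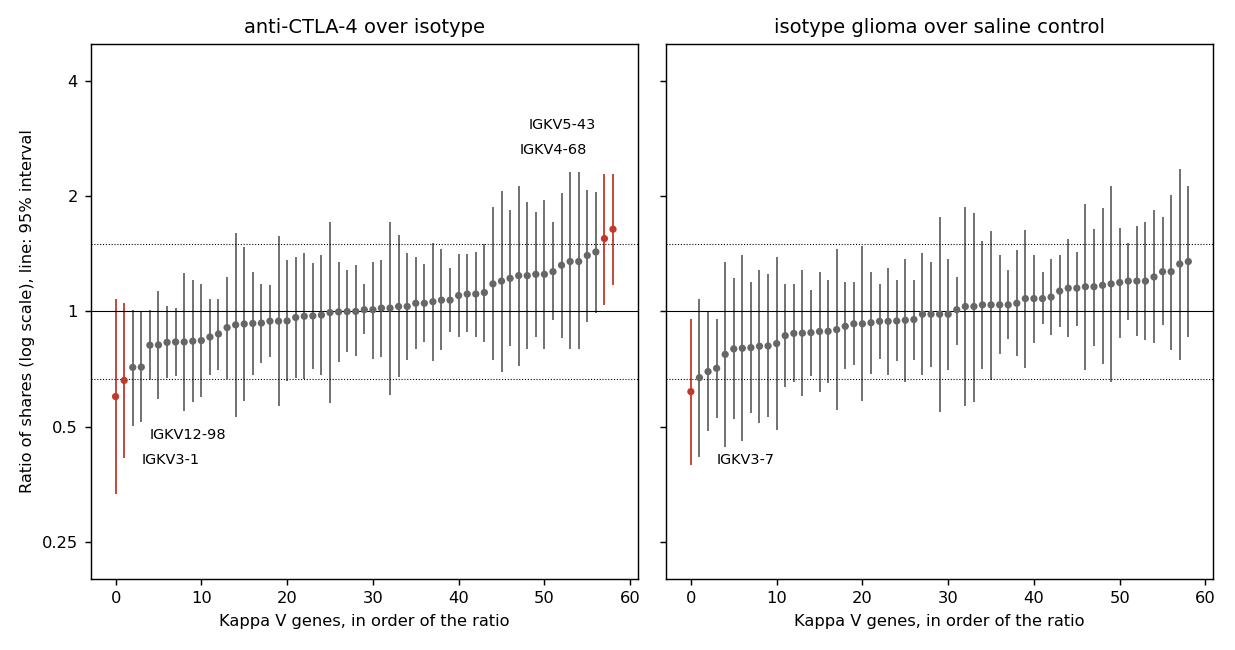
Ratio of shares on a log axis for the kappa V genes with at least 40 cells over both libraries, in order of the ratio, for anti-CTLA-4 over isotype (left) and isotype glioma over saline control (right); lines are 95% intervals and dotted lines mark 1.5-fold either way. Genes past 1.5-fold are in red, 4 of 59 on the left and 1 of 59 on the right.

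By mean share, J genes were used in the order IGKJ1, IGKJ2, IGKJ5 and IGKJ4. The first 2 had overlapping intervals, and IGKJ2 stood above IGKJ1 in the isotype library. IGKJ1 made up 31.3% (30.1 to 32.6) of anti-CTLA-4, 31.2% (29.9 to 32.6) of isotype and 31.9% (30.6 to 33.3) of saline control cells. IGKJ2 made up 30.7%, 31.9% and 30.1%, IGKJ5 24.3%, 23.1% and 24.2%, and IGKJ4 13.7%, 13.7% and 13.8%. No cell used IGKJ3, which is known not to function in mice, and 0 of 14744 cells allows a share of up to 0.0203%.

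Behind these stable totals the V genes differed widely in the J gene they joined, with similar shares in each library. Among 60 genes with at least 60 cells the IGKJ1 share ran between 0% in IGKV4-91 and 69.7% (57.1 to 80.4) in IGKV3-1. It was under 10% in 12 genes and over 50% in 7. IGKV2-137 joined IGKJ1 in 1.64% of anti-CTLA-4, 0% of isotype and 0% of saline control cells, over 177 cells in all, and IGKV4-91 in none of 107, which allows up to 2.80%. IGKV17-121 stood at 2.24%, 1.94% and 2.61%, and its near copy IGKV17-127 at 0.709%, 5.00% and 2.74%. IGKV10-96 joined IGKJ1 in 64.1%, 61.3% and 62.5% of its cells, and IGKV1-135 in 60.1%, 57.1% and 59.5%. Over the 39 genes with at least 40 cells in every library, the highest and lowest of a gene's 3 IGKJ1 shares lay a median of 6.06 percentage points apart, and at most 21.3. As a description over those 39 genes, which share libraries, Pearson's r of the IGKJ1 shares was 0.931 between anti-CTLA-4 and isotype, 0.939 between anti-CTLA-4 and saline control, and 0.928 between isotype and saline control.

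The IGKJ1 share went with the position of a V gene in some stretches of the locus and differed sharply between neighbours in others. In the IGKV3 family, the nearest to the J genes, it was 69.7% in IGKV3-1 at 18.7 kb from IGKJ1, 54.4% in IGKV3-2 at 23.8 kb, 48.0% in IGKV3-4 at 50.5 kb, 40.9% in IGKV3-5 at 59.0 kb and 21.1% in IGKV3-12 at 204 kb. IGKV3-7 and IGKV3-10 broke the order, with 24.6% at 115 kb and 38.0% at 150 kb. Over the same genes IGKJ5 made up 4.55% of IGKV3-1 and 26.3% of IGKV3-12 cells. Among the genes with at least 60 cells, neighbours could differ: IGKV6-15 at 316 kb stood at 6.07% and IGKV6-17 at 351 kb at 42.5%. IGKV13-85 stood at 14.9% and IGKV13-84 at 49.8%, IGKV17-121 at 2.27% and IGKV9-120 at 31.4%, and IGKV5-43 at 10.9% and IGKV12-44 at 34.7%. V genes between 1000 and 1500 kb from IGKJ1 used IGKJ1 in 15.5% of anti-CTLA-4, 13.2% of isotype and 13.2% of saline control cells. Those cells joined IGKJ5, the last J gene, in 43.2%, 44.1% and 43.4%. V genes between 2000 and 2500 kb, IGKV10-96 among them, used IGKJ1 in 46.0%, 43.8% and 48.1%. The orientation of each V gene was not in the tables used here and was not compared with the J share.

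**Figure D3:**
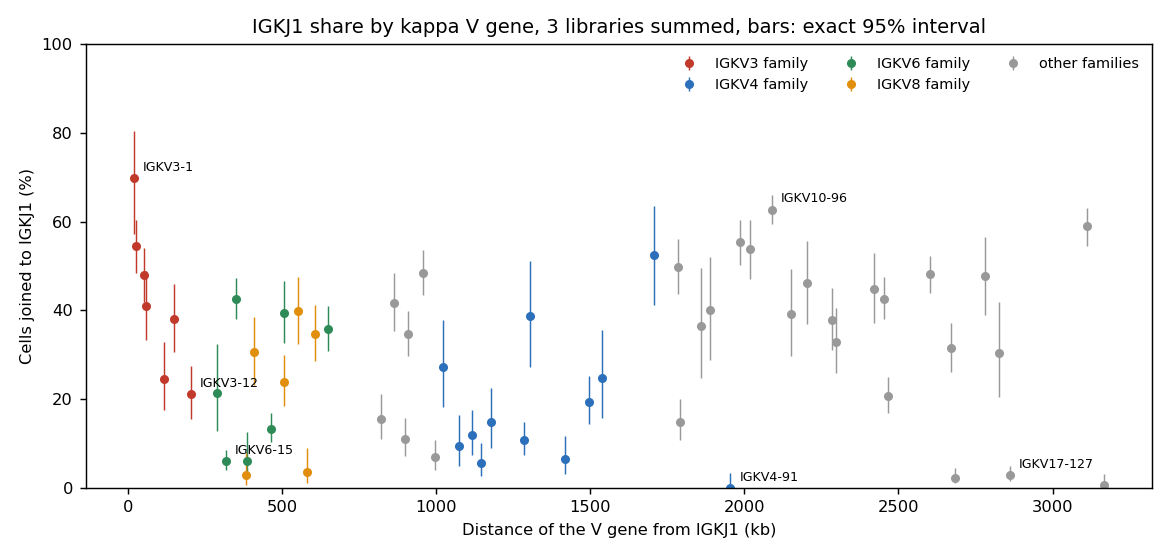
Percent of a V gene's cells joined to IGKJ1 (vertical axis, 3 libraries summed) against the distance of the V gene from IGKJ1 in kb, for 60 genes with at least 60 cells; bars are exact 95% intervals and colours mark families. IGKV3-1, the nearest gene, lies highest at 69.7%, and the genes of other families lie between 0% and 62.7%.

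The third loop of the kappa chain had nearly the same length in every cell. CDR3 is counted here with its conserved ends, as the contig tables give it. Its length was 11 residues in 89.2% (88.4 to 90.1) of anti-CTLA-4, 90.2% (89.3 to 91.1) of isotype and 90% (89.1 to 90.9) of saline control cells. A length of 10 residues made up 7.68%, 6.90% and 7.26%, and 12 residues 2.19%, 2.16% and 2.09%. Lengths between 5 and 9 residues occurred in 15, 8 and 8 cells. Of the 60 genes with at least 60 cells, 54 had 11 residues in at least 85% of cells. The exceptions included IGKV8-27, with 10 residues in 95.5% of 66 anti-CTLA-4, 100% of 45 isotype and 98.2% of 55 saline control cells. IGKV8-21 followed with 87.5%, 92.3% and 91.7%, IGKV19-93 with 77.5%, 65.1% and 79.2%, and IGKV4-80 with 42.9%, 54.5% and 44.4%. These 4 genes gave 57.2%, 54.3% and 64.0% of the 10-residue cells of the libraries. The commonest joins of the first 3 of them are 30 bases long, against 33 for the commonest of IGKV8-24, a gene of the family of IGKV8-27 with the usual length, as printed here without capitals.
IGKV8-27 with IGKJ1: tgtcatcaatacctctcctcgtggacgttc
IGKV8-21 with IGKJ2: tgcaagcaatcttataatctgtacacgttc
IGKV19-93 with IGKJ1: tgtctacagtatgataatctgtggacgttc
IGKV8-24 with IGKJ5: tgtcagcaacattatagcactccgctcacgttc
By J gene, 10 residues made up 9.84% of IGKJ1 and 5.47% of IGKJ5 cells in the anti-CTLA-4, 8.37% and 6.11% in the isotype, and 10.3% and 5.41% in the saline control library. Cells with a switched heavy chain (IgG or IgA) had 11 residues in 92.0% (85.3 to 96.3) in the anti-CTLA-4 library, against 89.2% (88.3 to 90.1) of cells with IGHM or IGHD. The corresponding shares were 90% (79.5 to 96.2) against 90.2% (89.2 to 91.0) in the isotype and 95.8% (78.9 to 99.9) against 90% (89.1 to 90.9) in the saline control library.

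Most kappa cells carried a rearrangement that the libraries held in common, while few heavy rearrangements were shared. The 14744 cells carried 1615 different combinations of V gene, J gene and CDR3 nucleotides, of which 490 occurred in every library and 751 in a single cell. The same combination also occurred in another library for 92.9% (92.2 to 93.5) of anti-CTLA-4, 94.1% (93.4 to 94.8) of isotype and 94.1% (93.4 to 94.8) of saline control cells. For the heavy chain of the same cells these shares were 0.0197%, 0.141% and 0.117%. The commonest kappa rearrangement was the IGKV10-96 with IGKJ1 sequence printed above, in 147 anti-CTLA-4, 97 isotype and 93 saline control cells. The 100 commonest made up 49.9% of all kappa cells. Clones were read from both chains.

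Few pairs of kappa and heavy V families departed alike in all 3 libraries from proportion to their use. Over 13577 kappa cells with a heavy contig, 69 pairs of families had at least 30 expected cells, where the expected number is the product of both families' shares in a library. Observed over expected cells ran between 0.550 and 1.65, and 8 of the 69 pairs, 11.6%, lay above 5/4 or below 4/5 of the expected number in all 3 libraries. The highest was IGKV17 with IGHV2, at 1.70 (20 cells) in the anti-CTLA-4, 1.53 (15 cells) in the isotype and 1.71 (19 cells) in the saline control library. IGKV14 with IGHV9 stood at 1.35 over the 3 libraries, IGKV8 with IGHV14 at 1.32, and IGKV1 with IGHV14 at 1.30. The lowest was IGKV10 with IGHV14, at 0.653 (13 cells), 0.538 (9 cells) and 0.435 (7 cells). IGKV17 with IGHV8 stood at 0.617, IGKV3 with IGHV5 at 0.643, and IGKV4 with IGHV9 at 0.729 over the 3 libraries. With only barcodes that held exactly 1 heavy and 1 kappa contig, 4 pairs met the rule, and 3 of them were among the 8. Those 3, which met it in every alternative tried, were IGKV10 with IGHV14, IGKV17 with IGHV8 and IGKV3 with IGHV5. No pair of the 8 had intervals free of 1 in all 3 libraries. Those of IGKV17 with IGHV8, 0.272 to 1.13, 0.249 to 1.28 and 0.276 to 1.26, all held 1. So did those of IGKV14 with IGHV9, IGKV8 with IGHV14, IGKV1 with IGHV14 and IGKV4 with IGHV9. For IGKV10 with IGHV14 only the saline control interval lay below 1 (0.175 to 0.897). For IGKV3 with IGHV5 only the anti-CTLA-4 interval did (0.326 to 0.927).

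A few pairs of single genes were picked after their values were seen. IGHV11-2 with IGKV14-126 and IGHV12-3 with IGKV4-91 are known from B-1 cells, an innate-like B cell type, where they bind phosphatidylcholine. IGKV14-126 was carried by 2 of 4 IGHV11-2 cells in the anti-CTLA-4, 2 of 4 in the isotype and 1 of 2 in the saline control library. IGKV4-91 was carried by 1 of 2, 1 of 3 and 1 of 4 IGHV12-3 cells. IGKV10-96 paired with IGHV9-3 in 26 anti-CTLA-4, 16 isotype and 7 saline control cells, out of 170, 164 and 168 cells with IGHV9-3, and 17 of the 26 anti-CTLA-4 cells belonged to the group of like receptors described further on.

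Kappa V segments that differed from the common sequence of their gene were rare in all cells and frequent in switched cells. A mismatch is a base that differs from the sequence most frequent for that V gene over the 3 libraries, and a cell counted as mismatched with at least 2. The comparison took in 14598 cells of 75 genes with at least 20 cells each, and 146 cells were not compared. Mismatched cells were 93 of 5425 or 1.71% (1.39 to 2.10) in the anti-CTLA-4, 24 of 4621 or 0.519% (0.333 to 0.772) in the isotype and 27 of 4552 or 0.593% (0.391 to 0.862) in the saline control library. The anti-CTLA-4 share was 3.30 (2.11 to 5.16) times the isotype share, and the isotype share 0.876 (0.506 to 1.52) times the saline control share. A single mismatch counted as enough gave 1.30 (0.819 to 2.07) for that last ratio. The 4 germinal centre markers given here were ordered alike in kappa cells, highest in the anti-CTLA-4 and lowest in the saline control library: Rgs13 had a UMI in 3.12%, 1.46% and 1.33%, S1pr2 in 3.10%, 1.28% and 0.741%, Basp1 in 6.24%, 3.79% and 2.33%, and Mef2b in 7.24%, 5.85% and 4.25%. In the other barcodes Rgs13 stood at 0.381%, 0.241% and 0.247%, Mef2b at 2.32%, 2.29% and 2.19%, S1pr2 at 2.51%, 2.23% and 2.09%, and Basp1 at 8.23%, 7.02% and 7.97%. The share of kappa barcodes with Cd3e, given above, ran in the same order of libraries. In B cell barcodes without Cd3, mismatched cells were 1.67% in the anti-CTLA-4, 0.480% in the isotype and 0.586% in the saline control library. The part of the germinal centre markers in the difference was not tested.

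Among switched cells, 52 of 110 anti-CTLA-4 cells were mismatched, 47.3% (37.7 to 57), against 11 of 60 isotype cells, 18.3% (9.52 to 30.4), and 13 of 24 saline control cells, 54.2% (32.8 to 74.4). The isotype share was the lowest: the anti-CTLA-4 share was 2.58 (1.46 to 4.56) times the isotype share and the isotype share 0.338 (0.177 to 0.647) times the saline control share. With 5 mismatches required the anti-CTLA-4 over isotype ratio was 1.64 (0.625 to 4.28), and with each rearrangement pair counted once 1.87 (1.04 to 3.37). Of the 60 isotype switched cells, 15 belonged to 3 groups of like receptors in which no cell had 2 mismatches. IgG1, the largest switched class in the anti-CTLA-4 and isotype libraries, had 39 of 78 mismatched cells in the anti-CTLA-4, 4 of 21 in the isotype and 2 of 5 in the saline control library. For IGHG2C the counts were 5 of 13, 0 of 16 and 5 of 5, and those 5 saline control cells belonged to 1 group of like receptors. IGHA had 4 of 6, 2 of 5 and 2 of 6.

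Cells with IGHM carried mismatches in 20 of 4168 anti-CTLA-4, 5 of 3514 isotype and 10 of 3683 saline control cells. For IGHD the counts were 0 of 721, which allows up to 0.416%, 0 of 612, which allows up to 0.490%, and 2 of 512. Kappa cells with no heavy contig made up 7.60%, 9.04% and 7.15% of kappa cells. Of those compared, 21 of 415 were mismatched in the anti-CTLA-4, 8 of 420 in the isotype and 2 of 328 in the saline control library, 5.06%, 1.90% and 0.610%.

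**Figure D4:**
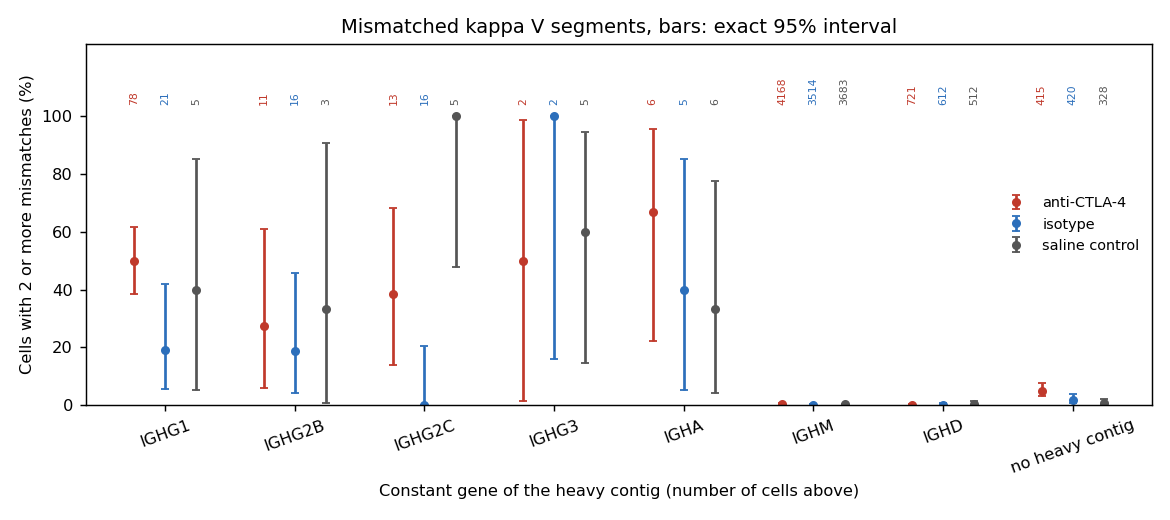
Percent of kappa cells with at least 2 mismatches in the V segment (vertical axis) by the constant gene of the heavy contig, in the anti-CTLA-4, isotype and saline control libraries; bars are exact 95% intervals and the numbers above are cells. IGHM and IGHD cells lie under 0.5% in each library, and IGHG1 cells at 50%, 19.0% and 40%.

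Most switched cells with kappa mismatches also had heavy V mismatches. In switched anti-CTLA-4 cells with both chains compared, 42 of 109 had at least 2 in both, 24 in the heavy chain alone, 10 in the kappa chain alone and 33 in neither. In isotype cells these counts were 10, 9, 1 and 38, and in saline control cells 12, 4, 1 and 7. The mean number per switched cell was 1.92 kappa and 3.53 heavy mismatches in the anti-CTLA-4, 0.931 and 1.90 in the isotype, and 2.92 and 5.67 in the saline control library. Substitutions were counted once for each group of cells with the same V genes, heavy J gene and heavy CDR3 length. The 312 anti-CTLA-4, 79 isotype and 131 saline control substitutions fell in the first or second loop for 33.7% (28.4 to 39.2), 36.7% (26.1 to 48.3) and 30.5% (22.8 to 39.2). Those loops make up 21.9%, 21.8% and 23.2% of the bases compared.

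Switched cells were few, and their kappa V genes were led by a handful of groups. There were 112 switched kappa cells in the anti-CTLA-4, 60 in the isotype and 24 in the saline control library, carrying 40, 28 and 13 kappa V genes. IGKV10-96 made up 22 of 112 switched cells in the anti-CTLA-4 library, 19.6% (12.7 to 28.2), against 6.09% (5.44 to 6.79) of IGHM or IGHD cells there, a ratio of 3.23 (2.18 to 4.77). It was 4 of 60 isotype switched cells, 6.67% (1.85 to 16.2), a ratio of 1.03 (0.398 to 2.68), and 0 of 24 saline control cells, which allows up to 12.5%. IGKV12-41 made up 10 anti-CTLA-4 switched cells, 8.93% against 1.31% of IGHM or IGHD cells, all in 1 group of like heavy chains, and 2 isotype and 0 saline control cells. IGKV19-93 made up 7 anti-CTLA-4, 8 isotype and 0 saline control cells, with ratios of 2.64 (1.26 to 5.53) in the anti-CTLA-4 and 5.20 (2.66 to 10.2) in the isotype library. The 7 anti-CTLA-4 cells were 1 clone and 5 of the 8 isotype cells another, and the isotype ratio was 2.84 (0.939 to 8.57) with each rearrangement pair counted once. IGKV14-111 made up 7, 0 and 5 cells, and the 5 saline control cells came from 1 group. IGKV1-110 made up 1, 2 and 4 cells, IGKV1-117 2, 1 and 4, and IGKV13-85 and IGKV6-23 6, 0 and 0 cells each. IGKJ1 was joined in 42.0% (32.7 to 51.7) of anti-CTLA-4, 45% (32.1 to 58.4) of isotype and 33.3% (15.6 to 55.3) of saline control switched cells, against 31.1%, 30.8% and 31.9% of IGHM or IGHD cells. Groups of like receptors, described below, are among the switched IGKJ1 cells. They held 17 and 7 of the anti-CTLA-4, 5, 5 and 4 of the isotype and 4 of the saline control cells.

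**Figure D5:**
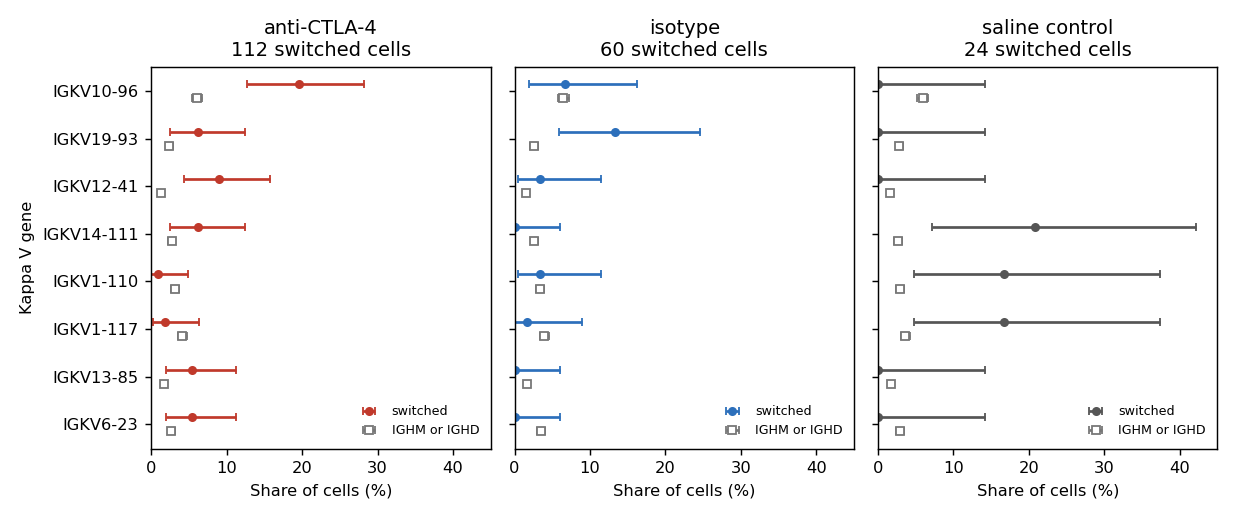
Share of switched cells (filled circles) and of IGHM or IGHD cells (open squares) that used each of the 8 kappa V genes with most switched cells, by library; bars are exact 95% intervals. IGKV10-96 lies at 19.6% of the 112 switched anti-CTLA-4 cells, against 6.09% of IGHM or IGHD cells.

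The larger groups of switched cells differed in kappa RNA and in mismatches, and are described after their values were seen. Groups of at least 4 switched cells with the same kappa V and J gene, heavy V and J gene and heavy CDR3 length numbered 4 in the anti-CTLA-4, 4 in the isotype and 2 in the saline control library, and held 40, 19 and 9 cells. In some, median kappa UMIs were 160 or fewer and kappa mismatches were present. The anti-CTLA-4 group of IGKV12-41 with IGHV1-9 had 10 IGHG1 cells, a median of 160 kappa UMIs, and at least 2 kappa mismatches in 4. The anti-CTLA-4 group of IGKV6-23 with IGHV1-64 had 6 IGHG1 cells with a median of 69.0 UMIs and at least 2 mismatches in 5. The saline control group of IGKV14-111 with IGHV1-64 had 5 IGHG2C cells with a median of 69.0 UMIs and between 5 and 8 mismatches in each. That of IGKV1-117 with IGHV1-55 had 4 IGHG3 cells with a median of 81.0 UMIs and at least 2 mismatches in 2. In others, median kappa UMIs were 2295 or more and no cell had 2 mismatches. The anti-CTLA-4 group of IGKV19-93 with IGHV2-3 had 7 cells with between 4489 and 10779 kappa UMIs, a median of 7399, and a median of 270 UMIs of Jchain, a gene of antibody-secreting cells. The isotype groups of IGKV19-93 with IGHV1-82, IGKV3-1 with IGHV1-72 and IGKV4-86 with IGHV1-12 had 5 cells each, with medians of 7237, 11539 and 2295 kappa UMIs and 529, 558 and 424 Jchain UMIs. The lowest cells of the IGKV19-93 and IGKV4-86 groups had 142 and 441 kappa UMIs. Jchain also had a UMI in most cells of the groups with lower kappa UMIs, at medians between 2.00 and 16.0 UMIs. Prdm1, another gene of antibody-secreting cells, had a UMI in 5 of the 7 cells with IGHV2-3. It had one in 1 of 5 cells with IGHV1-82, 5 of 5 with IGHV1-72 and 3 of 5 with IGHV1-12. Among the groups with lower kappa UMIs, Prdm1 had a UMI in 1 of 10 cells with IGHV1-9 and in no cell of the rest.

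Of the 22 switched anti-CTLA-4 cells with IGKV10-96, 17 carried a receptor whose like was also found in the isotype library. It was the largest of 10 groups found by a search, run after the data were seen, for cells of different libraries with the same heavy V and J gene, kappa V gene and heavy CDR3 length, and at most 1 residue different in heavy CDR3. The group joined IGKV10-96 with IGKJ1 and IGHV9-3 with IGHJ4, and all of its cells were IGHG1. It held 17 of 80 anti-CTLA-4 IGHG1 cells, 21.2% (12.9 to 31.8), and 4 of 21 isotype IGHG1 cells, 19.0% (5.45 to 41.9). None of the 5 saline control IGHG1 cells belonged to it, which allows a share of up to 60%. The other 9 groups had 2 or 3 cells each. Among them 2 paired IGHV11-2 with IGKV14-126, and 2 were the barcodes shared by the isotype and saline control libraries. The commonest heavy CDR3 of the group, 36 bases for 12 residues, differed between libraries at 2 adjacent bases, in capitals, and encoded the same residues. No heavy CDR3 nucleotide sequence of the group occurred in both libraries, and no barcode did.
IGHV9-3 with IGHJ4, anti-CTLA-4: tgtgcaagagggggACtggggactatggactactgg
IGHV9-3 with IGHJ4, isotype: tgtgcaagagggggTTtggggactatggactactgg
Its kappa CDR3 was the common IGKV10-96 with IGKJ1 sequence printed above in 15 anti-CTLA-4 and 2 isotype cells. Kappa V mismatches numbered between 0 and 8 per anti-CTLA-4 cell, with at least 2 in 11 cells, and between 0 and 6 per isotype cell, with at least 2 in 2. Together the cells showed 37 different substitutions, of which 28 were in a single cell and none was in both libraries. Counted from the first base of the V segment printed above, G237A was in 4 anti-CTLA-4 cells and G227C in 3, and neither was in any of the other 899 IGKV10-96 cells. Of those other cells 883 carried the common V segment without a mismatch. The expression tables gave IGKV10-96 as the highest kappa V gene in 17 of the 17 and 4 of the 4 cells. Rgs13 had a UMI in 13 anti-CTLA-4 and 3 isotype cells of the group. Among all IGHG1 cells, the group included, it had one in 55 of 80 anti-CTLA-4 and 6 of 21 isotype cells. Without the group IGKV10-96 made up 5 of 95 switched anti-CTLA-4 cells, 5.26% (1.73 to 11.9), and the ratio to IGHM or IGHD cells was 0.865 (0.366 to 2.04).

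Light chain type was close to the same in each library. Of barcodes with a light chain, 94.7% in the anti-CTLA-4, 94.6% in the isotype and 95% in the saline control library had kappa alone, and 4.43% (3.91 to 4.99), 4.65% (4.08 to 5.28) and 4.22% (3.66 to 4.82) lambda alone. Kappa with lambda made up 0.889%, 0.715% and 0.793%. A second productive kappa contig was found in 9.30% (8.54 to 10.1) of anti-CTLA-4, 8.63% (7.84 to 9.47) of isotype and 8.30% (7.52 to 9.14) of saline control kappa cells. These cells also had a second heavy contig in 32.2%, 27.5% and 27.6%, against 1.11%, 1.59% and 0.808% of cells with 1 kappa contig. Their expression barcodes held medians of 4807, 5968 and 4822 UMIs, against 3686, 3949 and 4017. The share of barcodes that held more than 1 cell was not tested.

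RNA of the expression libraries matched the contigs gene by gene. The kappa V gene with most UMIs in a barcode was that of the contig in 97.0% (96.5 to 97.5) of anti-CTLA-4, 97.3% (96.8 to 97.7) of isotype and 98.0% (97.5 to 98.3) of saline control cells with such a UMI. Of genes that act on light chains, Rag1 and Rag2, which cut the DNA for V to J joining, had 0 UMIs in anti-CTLA-4 and isotype kappa cells, and 9 and 2 UMIs in the saline control. Igll1, a chain of the surrogate light chain of B cell precursors, had 0 UMIs in each. Vpreb3 had a UMI in 43.8%, 48.8% and 50.6% of kappa cells, and Ung, which removes uracil from DNA, in 5.85%, 6.53% and 5.75%, against 5.88%, 7.44% and 7.84% of other barcodes for Ung. Iglc2, a lambda constant gene, had a UMI in 86.1%, 88.3% and 87.6% of kappa cells and in 8.98%, 11.6% and 8.62% of other barcodes. UMIs of Igkc, the kappa constant gene, stood at 1390, 1974 and 1124 CPM of all UMIs of the kappa cells. Igkc had a UMI in 88.1%, 89.6% and 90.1% of these cells. The highest single cell held 4.47%, 4.36% and 3.93% of the Igkc UMIs.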

How the data were processed

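B cell receptor contigs of 3 libraries and expression tables of 5 libraries were used. The counts are UMIs per contig and UMIs per gene and barcode as deposited, made by the authors with Cell Ranger, version 7.0.1 per the file headers of the expression tables. For the contigs no version is stated in their header or labels. The submitters' processing notes name bcl2fastq 2.20.0 and the genome build mm10. The contigs listed are all productive and from called cells; no molecule was re-counted. For each barcode the kappa contig and the heavy contig with most UMIs were kept.

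Shares have exact Clopper-Pearson 95% intervals, ratios of shares 95% log intervals and pair counts exact Poisson intervals, all of counting error only. A count of 0 allows up to 3 counts of the total. No test was run, since each group had 1 library. Ratios were computed for genes with at least 40 cells over both libraries. A V segment was compared with the sequence most frequent among its gene's cells, for genes with at least 20 cells; an allele shared by most cells is not seen as a mismatch. Distances to IGKJ1 came from RefSeq (GRCm38.p6, the build mm10). Genes named were the 12 with the highest mean share, the 5 highest and the 5 lowest in each comparison by the interval bound nearest 1, the 8 with most switched cells, and the pairs that met the pairing rule; others were picked after their values were seen. Members and lists were chosen with earlier results of these data known. 1 gene of the germinal centre list is not reported here. Doublets were not called; barcodes with more than 1 kappa contig were left out in an alternative. The scripts were tested on simulated data and ran under Python 3.11.15 with pandas 2.3.3 and scipy 1.17.1.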

Additional observations from a re-analysis of the deposited data

Results flagged for a closer look

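Kappa V gene RNA was present in both B cell-depleted expression libraries, which have no receptor contigs here and enter no comparison. The depleted anti-CTLA-4 library held 70437 UMIs of kappa V genes, 1133 CPM, in 273 barcodes. The 5 barcodes with most held 80.6% of them, and IGKV3-12 led with 37232 UMIs or 52.9%. The depleted isotype library held 60175 such UMIs, 986 CPM, in 134 barcodes. There the 5 leading barcodes held 92.5%, and IGKV3-2 led with 18582 UMIs or 30.9%, of which 99.9% stood in a single barcode.

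Among 1294 kappa contigs that were not the leading contig of their barcode, 7 contigs carried V genes that no leading contig used. IGKV4-81 had 3 of them, and IGKV4-56 and IGKV4-78 had 2 each, with between 4 and 13 UMIs per contig.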

How the results depend on the processing

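Of 279 alternative values of 46 results, 252 kept their direction and lay within the 95% interval of the value reported, or, for counts, within 1.5 times of it; 25 moved further and 2 changed direction. A wide interval can hold large moves, such as 5.20 to 2.84 for IGKV19-93 in isotype switched cells and 2.58 to 1.64 for the switched mismatch ratio. The count of kappa V genes past 1.5-fold for anti-CTLA-4 over isotype was 4, and it was 0 at 2-fold and 9 with genes of at least 20 cells. For isotype glioma over saline control it was 1. That count was 2 with only barcodes of 1 kappa contig, 2 with each rearrangement pair counted once, 2 in B cell barcodes without Cd3, 0 at 2-fold and 5 with genes of at least 20 cells. Family pairs meeting the pairing rule numbered 8, against 4 with 1 heavy and 1 kappa contig, 5 with each rearrangement pair counted once and 5 in IGHM or IGHD cells. Mismatched kappa cells, 1.71% in the anti-CTLA-4 library, were 1.24% with each rearrangement pair counted once. With 1 mismatch as enough they were 2.41% in the anti-CTLA-4 and 0.887% in the isotype library, and with 5 required 0.461%, 0.108% and, in the saline control, 0.286%. The ratio for isotype over saline control, 0.876, was 1.30 with 1 mismatch and 0.379 with 5, and its cause was not tested. In switched cells 59.1% of anti-CTLA-4 cells had 1 mismatch or more, and 13.6% of anti-CTLA-4, 8.33% of isotype and 29.2% of saline control cells had 5 or more. The switched ratio of IGKV10-96 in the anti-CTLA-4 library, 3.23, was 1.98 with each rearrangement pair counted once and 0.865 without the IGHV9-3 receptors, which removes 17 of its 22 switched cells. With only barcodes of 1 kappa contig the contig gene led the RNA in 97.9% of anti-CTLA-4, 97.9% of isotype and 98.4% of saline control cells. Leaving out those receptors, leaving out the shared barcodes and comparing anti-CTLA-4 with saline control were chosen after seeing the data. Leaving out the shared barcodes kept all 10 mismatch values it was applied to within those limits. That step removed only the 2 barcodes with the same receptor in the isotype and saline control libraries. It could not alter the anti-CTLA-4 shares and is a weak check of the other values. No paired analysis was possible because each group had 1 receptor library. Genes with few cells and the 24 switched saline control cells limit what can be resolved at this depth.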
